A study of Homo sapiens with 2 samples.

Results

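Open chromatin inside the transcribed, mature parts of genes was examined in CAMA-1, a human breast cancer cell line of epithelial type grown as adherent cultures in serum-containing medium without treatment. ATAC-seq uses the enzyme Tn5 to tag accessible DNA with adapters, and was performed on 2 biological replicates of 50000 cells each, which form a single condition, so no condition is compared with another here. The members were taken from the 215195 regions in which overlapping peaks of both replicates were merged. A region was a member when it lay on an autosome (chromosomes 1 to 22), its midpoint fell in the coding sequence (CDS) or the 3′ untranslated region (3′ UTR) of a protein-coding transcript of GENCODE release 44 on hg38, and that midpoint was more than 3 kb from every annotated transcription start site (TSS). This left 4245 members, of which 1672 had the midpoint in a CDS and 2573 in a 3′ UTR. A midpoint that was coding in any transcript counted as CDS, which included 79 midpoints that another transcript placed in a 3′ UTR. Among the 140803 autosomal regions over 3 kb from a TSS, 64886 lay in introns of protein-coding genes and 52881 between genes, and these served for comparison.

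A coding exon carries the codons of a protein, and the 3′ UTR is the stretch of mature mRNA behind the stop codon that holds binding sites of microRNAs and RNA-binding proteins and the polyadenylation signal. In the genome both are also DNA to which transcription factors can bind, and some coding exons are known to double as enhancers of the same or a neighbouring gene. Open chromatin at such places therefore reports on the DNA and not on the RNA, and a region with its midpoint in an exon can reach beyond that exon. As a check of the labelled cell type, 10 of 10 luminal epithelial marker genes, among them GATA3 and FOXA1, had a shared region over a TSS, whereas 0 of 3 basal markers (KRT5, KRT14, TP63) and 0 of 5 blood markers did. For comparison, 78.6% of all protein-coding genes had a shared region within 1 kb of a TSS, a wider criterion than that used for the markers. Replicate 1 had 245736 peaks and replicate 2 had 259745. The deposited lists give no read totals, but the steps between the fold enrichment values correspond to backgrounds of 3.35 and 3.52 stacked reads, from which the height of each peak in stacked reads was obtained.

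Some of these exonic regions have, near the midpoint, a match to the recognition sequence of CTCF, the zinc finger protein that anchors chromatin loops. In the matches printed below, the motif and a coding sequence or a UTR occupy the same bases. Binding of CTCF was not measured. A match to a 12-base CTCF motif within 50 bp of the midpoint was found in 30 CDS regions (1.79%) and in 54 3′ UTR regions (2.10%). These shares were close to the 1.67% of intron and 2.01% of intergenic regions. The 6 strongest of the CDS regions with such a match are shown in hg38 coordinates, read on the strand that carries the motif, with the motif in capitals and 9 bases on each side.

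PMF1, chr1:156225590-156225619, minus strand: acagactgtCCACCAGAGGGCaggcgggga
AHSG, chr3:186617214-186617243, minus strand: tcagcggggCCAGCAGGGGGCagtcttggc
ASTN1, chr1:176949224-176949253, minus strand: gctgtgcctCCAGCAGATGGCgcccttccc
PIGR, chr1:206935660-206935689, plus strand: cgctgtccaCCAGCAGGGGGCagcggccat
AFF4, chr5:132883417-132883446, minus strand: acagaagatCCACCAGATGGCagccagcta
IGDCC4, chr15:65400914-65400943, minus strand: ccctggcgtCCACCAGGGGGCaggacgtgg

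All 12 motif bases of each of these 6 matches lay in coding sequence. The PMF1 region, in exon 2 of 5 of a kinetochore gene, had a fold enrichment of 98.7 in replicate 1 and 96.9 in replicate 2, with summits of 428 and 437 stacked reads. The region in exon 4 of AHSG, which encodes the plasma protein fetuin-A, reached 93.4-fold and 92.4-fold. Exon 12 of ASTN1, a gene of neuronal migration, held a region of 90.2-fold and 91.5-fold at 80239 bp from the nearest TSS. PIGR, which encodes the receptor that carries immunoglobulins across mammary and other epithelia, had 62.1-fold in both replicates, AFF4, a scaffold of the super elongation complex, had 59.4-fold and 61.7-fold, and IGDCC4 had 56.1-fold and 47.1-fold. In 3 of these 6 the motif lay on the strand of the gene.

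The same motif lay in the 3′ UTR of the following 6 genes, again the strongest regions with a match, shown because the sites are outside any reading frame.

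MVK, chr12:109597864-109597893, plus strand: tgcccttggCCACTAGGGGGCagctggcgg
NKIRAS2, chr17:42025076-42025105, plus strand: tccctccagCCACCAGGGGGCaggagtgca
WTIP, chr19:34501727-34501756, minus strand: cggctcagcCCACCAGGTGGCgcccgcgcc
TBC1D24, chr16:2501360-2501389, minus strand: tatgcggcaCCAGCAGGGGGCaccacaggc
GPT2, chr16:46929882-46929911, minus strand: ccgctgtcgCCAGCAGGGGGCgatgtgctc
MGAT1, chr5:180790150-180790179, plus strand: ctgcctgggCCAGCAGAGGGCaccgggcac

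All 12 motif bases of each of these matches lay in the 3′ UTR. The MVK region, behind the coding sequence of mevalonate kinase, had 66.0-fold and 69.9-fold enrichment, and the NKIRAS2 region had 57.1-fold and 56.2-fold. For WTIP the values were 54.8 and 49.5, and for TBC1D24 they were 48.1 and 48.2. The GPT2 site reached 41.6-fold in both replicates, and the MGAT1 site 35.9-fold and 42.2-fold. The motif had the orientation of the gene in 2 of these 6. Regions with a CTCF match had higher medians than the members as a whole: their fold enrichment was 13.6 and 14.3 in CDS and 22.2 and 23.2 in 3′ UTRs, in replicates 1 and 2, as against 8.97 and 9.07 for all CDS regions and 8.97 and 9.51 for all 3′ UTR regions. Intron regions with a match had 15.2 and 14.6. In CDS higher medians were not particular to CTCF. Regions with the SP/KLF motif GGGCGG had 14.5 and 11.9, and those with the grainyhead motif AACCNGTT 13.6 and 11.9. Those with the forkhead motif TGTTTAC had 7.59 and 7.52.

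Exonic regions were close to open regions elsewhere in strength and width. The median fold enrichment of the CDS regions was 8.97 in replicate 1 and 9.07 in replicate 2, with the middle 50% between 5.75 and 19.6 in replicate 1. For 3′ UTR regions the medians were 8.97 and 9.51, for intron regions 8.97 and 9.29, and for intergenic regions 9.20 and 9.51. Relative to introns this was 0.988 ± 0.017 (SD, n = 2) for CDS and 1.01 ± 0.017 (SD, n = 2) for 3′ UTRs, so neither class differed from introns by more than the spread between the replicates. Regions within 1 kb of a TSS, of which there were 37141, had medians of 16.8 and 17.0. The median width was 340.5 bp in CDS, 373 bp in 3′ UTRs, 343 bp in introns and 340 bp between genes. At the threshold of 3 kb the medians were close: the 407 CDS regions 2 to 3 kb from a TSS had medians of 9.20 and 8.62 and the 302 at 3 to 4 kb had 8.74 and 8.73, while the 3′ UTR regions had 8.51 and 8.40 just inside 3 kb (n = 572) and 8.86 and 8.85 just outside (n = 464).

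**Figure D1:**
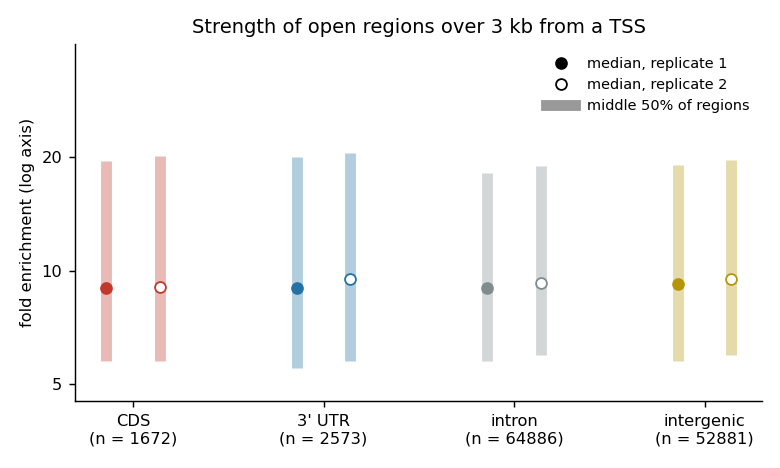
Fold enrichment (log axis) of open regions over 3 kb from a TSS, by the feature at their midpoint. Points are the medians of replicate 1 (filled) and replicate 2 (open), and bars span the middle 50% of the regions. The 8 medians lie between 8.97 and 9.51 and the bars overlap almost entirely.

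The replicates gave the same picture region by region. Of the CDS peaks of replicate 1 over 3 kb from a TSS, 88.8% (1711 of 1926; 95% Wilson interval 87.4 to 90.2%) overlapped a peak of replicate 2, as did 89.1% (87.9 to 90.1%) of the 3′ UTR peaks and 89.9% (89.6 to 90.1%) of the intron peaks. In the other direction 82.5% of CDS, 83.1% of 3′ UTR and 83.6% of intron peaks of replicate 2 were found again in replicate 1. The peaks that were not found again were weak, with medians of 4.14-fold (CDS) and 4.37-fold (3′ UTR) in replicate 1 and 4.201-fold for both in replicate 2. Over the members the fold enrichments of the replicates had a Spearman coefficient of 0.949 in CDS (n = 1672) and 0.937 in 3′ UTRs (n = 2573), given as a description, since both lists were required to contain the region. The replicates differed by more than 2-fold in 2 CDS regions and 9 3′ UTR regions. Summit heights ranged from 11 to 818 stacked reads in CDS and from 11 to 898 in 3′ UTRs. All intervals here cover counting error only, and regions are not independent replicates.

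The strongest CDS regions lay in genes of very different function, from muscle regulators to metabolic enzymes and channels. MDFI, which encodes an inhibitor of MyoD family factors, had the best mean rank, with a region at chr6:41652862-41654072 in the last of 5 exons. Its fold enrichment was 164 in replicate 1 and 181 in replicate 2, with summits of 713 (exact Poisson 95% interval 662 to 767) and 818 (763 to 876) stacked reads. KLHL31, a kelch family gene, followed with 163 and 181 at chr6:53651165-53652549, in a CpG-rich stretch (71.5% GC, CpG ratio 0.985) of its last exon. The promoters of both genes were not open, in that no shared region lay within 1 kb of a TSS of their protein-coding transcripts. The same held for KLB, the β-klotho co-receptor of endocrine FGF signalling, whose region of 127-fold and 138-fold lay over exon 4 of 5, and for CD101, an immunoglobulin superfamily gene, with 118-fold and 140-fold in exon 4 of 10. The other 8 of the 12 strongest had an open promoter, against 84.4% (1411 of 1672) of all CDS regions.

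GPT2, mitochondrial alanine transaminase, held 150-fold and 169-fold over exon 4 of 12 at chr16:46900267-46901189, in addition to the 3′ UTR site with the CTCF match given before. DPYD, the first enzyme of pyrimidine breakdown, had 136-fold and 150-fold at exon 20 of 23, 72213 bp from the nearest TSS. ADCK5 had 145-fold and 147-fold, ENTPD8, an ectonucleotidase, 150-fold and 146-fold, and KCNN3, a calcium-activated potassium channel, 132-fold and 144-fold. N4BP3 had 127-fold and 129-fold in exon 3 of 5, and MRPL45, a mitochondrial ribosomal protein, 122-fold and 130-fold in exon 6 of 8. In 11 of these 12 regions replicate 2 had the higher value. The Poisson intervals of the summits did not overlap between the replicates in 4 of them (KLHL31, GPT2, KRT8 and CD101). Over all CDS regions this was so in 19 of 1672 (1.14%). Stacked reads were not scaled for the depth of the libraries. Coding bases made up 11.8% of the region in GPT2, 12.9% in KCNN3, 16.4% in MRPL45 and 18.5% in DPYD, with the rest intron. The share was 13.2% in KRT8, 38.2% in ENTPD8, 38.7% in CD101, 40.3% in ADCK5 and 43.4% in N4BP3. It was 52.9% in KLHL31, 85.8% in KLB and 21.2% in MDFI, where 3′ UTR made up 41.0%. The midpoint assigned the class and stood for the summit, so the most open part of these regions was not located.

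KRT8, the luminal keratin, needs to be set apart. Its region at chr12:52894513-52903072 was 8560 bp wide, the widest CDS region, with 129-fold and 147-fold enrichment. The midpoint was 3074 bp from the nearest TSS, but the region itself reached across a TSS, the only CDS region to do so, and 23.3% of its 32-base words occurred elsewhere in the genome. A member whose edge came within 3 kb of a TSS was found in 83 CDS cases (4.96%) and 154 3′ UTR cases (5.99%), and ADCK5, ENTPD8 and KLHL31 are among them. Copied words were also frequent in the KCNN3 region (28.3%) and reached 10.4% in that of ADCK5.

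The strongest 3′ UTR regions included the strongest member of all and one luminal transcription factor. N4BP3 carried, besides its coding region, a 3′ UTR region at chr5:178121891-178125885 of 3995 bp inside exon 5 of 5, with fold enrichments of 202 and 199 and summits of 878 (821 to 938) and 898 (840 to 959) stacked reads. TRERF1, a zinc finger regulator, had 161-fold and 163-fold at chr6:42226040-42228134. ABCC5, an organic anion transporter, had 156-fold and 159-fold, and GNAO1, a G protein α subunit, 154-fold and 156-fold. DLL4, a Notch ligand of endothelium, had 154-fold in both replicates. The 3′ UTR of ARHGAP26, a GTPase-activating protein, had 145-fold and 137-fold, and that of PARP9 131-fold and 137-fold. RSPH9, a radial spoke protein of cilia, had 144-fold and 159-fold. In TRERF1, GNAO1 and PARP9 all bases of the region were 3′ UTR. Each of the genes named here had an open promoter, as did the genes of 90.9% (2339 of 2573) of all 3′ UTR regions.

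SPDEF, an ETS factor of luminal breast and prostate epithelium, had 148-fold and 161-fold at chr6:34535249-34540519. Of the 5271 bp of this region only 8.95% were 3′ UTR, as it ran across the last exon, 651 bp long, into intron and the sequence behind the gene. Wide regions around a short UTR were also seen at GSTM5, a glutathione transferase (3027 bp wide, 159-fold and 155-fold, midpoint 3029 bp from a TSS) and at RNF223 (135-fold and 140-fold, 8918 bp, across a TSS). For these 3 the midpoint assigned the class, and the region was open well beyond the exon.

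**Figure D2:**
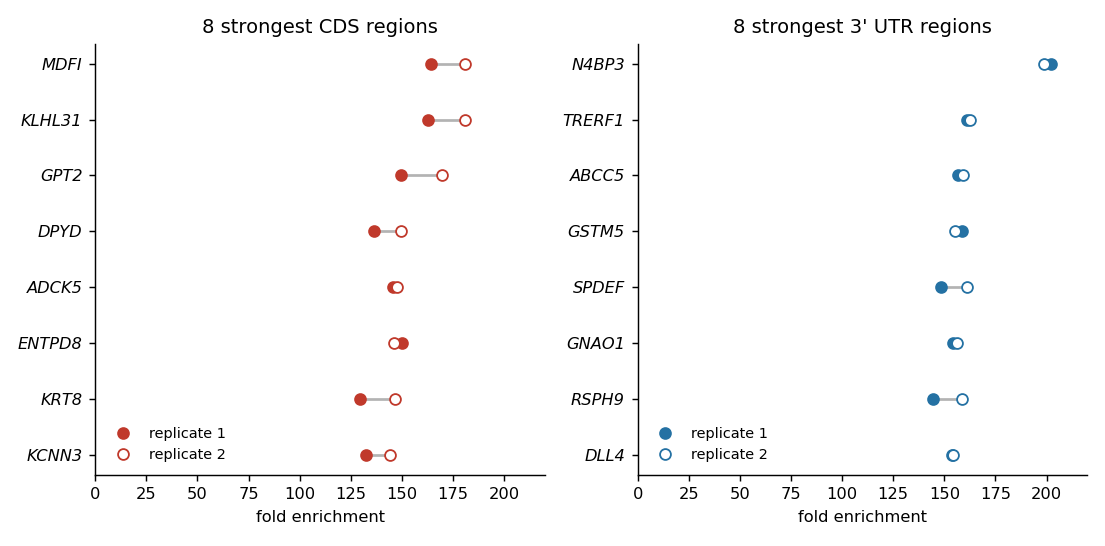
Fold enrichment of the 8 CDS regions and the 8 3′ UTR regions with the best mean rank over both replicates, named by gene. Filled points are replicate 1, open points replicate 2, and each line joins the replicates of 1 region. The 16 regions lie between 129 and 202, and most pairs of points are close.

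Most CDS regions were wider than the exon at their centre, whereas 3′ UTR regions mostly fitted inside one. The exon at the midpoint had a median length of 203 bp (middle 50%: 139 to 951 bp) for CDS and 3555 bp for 3′ UTR members. A median of 53.9% of the bases of a CDS region were coding, and 18.4% (308 of 1672) of these regions lay within 1 exon, against 87.3% (2247 of 2573) of the 3′ UTR regions. The 952 CDS regions with at least 50% coding bases were narrower (median 288.5 bp) and weaker (7.13-fold and 7.30-fold) than the 720 with less (459.5 bp, 13.2-fold and 13.5-fold). In 3′ UTRs, too, the 2247 regions inside 1 exon had medians of 8.51 and 8.85 and the 326 that reached past it had 17.9 and 18.7. Wider regions overlap more non-exonic bases by construction, so width and exonic share cannot be told apart here.

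Along the coding sequence, regions were spread over the whole length. Counted on canonical transcripts and per Mb of coding bases over 3 kb from a TSS, there were 104, 109, 107 and 103 regions in the first 4 of 5 equal parts and 122 (exact Poisson 95% interval 110 to 135) in the last, whose interval overlaps those of the others. In the 3′ UTR the 5 parts held 91.4, 96.7, 103, 104 and 89.5 regions per Mb. The last exon held 23.7% of the CDS regions. Coding exons of 150 to 300 bp had 136 regions per Mb (124 to 147), exons under 150 bp 98.4 (89.6 to 108) and exons over 1000 bp 96.1 (86.7 to 106), so that exons of 150 to 300 bp stood above these by more than counting error. Exons of 300 to 1000 bp had 120 per Mb (103 to 139), an interval that overlaps those of all 3 other classes. At 12.4% of CDS and 17.6% of 3′ UTR midpoints another gene was annotated as well. The nearest TSS belonged to another gene for 35.2% of the CDS regions and 49.7% of the 3′ UTR regions.

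The question of how often exons are open, compared with introns, depended on the base composition. Peaks with the midpoint in CDS numbered 130 per Mb in replicate 1 and 139 per Mb in replicate 2, and those in 3′ UTRs 116 and 124 per Mb, against 83.3 and 89.0 per Mb in introns at the same minimum distance from a TSS. For shared regions the densities were 113, 99.5 and 73.2 per Mb. Relative to introns, CDS had 1.54 times and 3′ UTRs 1.36 times as many shared regions per base, and the ratios of the single replicates were 1.56 and 1.56 for CDS and 1.39 and 1.39 for 3′ UTRs, so both excesses were larger than the spread between replicates. However, the coding bases concerned were 49.4% GC, the 3′ UTR bases 41.0% and the intron bases 40.6%, and the density of open regions rose steeply with GC in every class. In introns it went from 6.67 shared regions per Mb where the surrounding 200 bases had under 35% GC to 311 per Mb at 60 to 65% GC.

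When introns were weighted to the GC content of the coding bases, the direction for CDS turned: 1916 regions would be found at the density of introns, and the 1672 observed were 0.873 times that (0.872 and 0.883 in the single replicates). With GC taken over 500 bases the ratio was 0.940, and with GC and TSS distance together 0.834. The deficit was deepest above 60% GC. At 60 to 65% GC, CDS had 218 shared regions per Mb and introns 311, a ratio of 0.703, with 0.761 and 0.666 in the replicates, while at 45 to 50% GC the densities were 124 and 120. A ratio under 1 was also found at 35 to 40% GC (0.846, with 0.857 and 0.910 in the replicates) and at 55 to 60% GC (0.875, with 0.842 and 0.923). For 3′ UTRs the excess remained above introns, at 1.26 (1.28 and 1.29) with GC, 1.22 with GC over 500 bases, and 1.19 with GC and distance. It held in each GC class from 35% upwards, and above 65% GC 3′ UTRs had 374 and introns 257 regions per Mb. These weightings were chosen after the densities had been seen, and GC also affects amplification and alignment of reads, whose part in these densities was not tested.

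**Figure D3:**
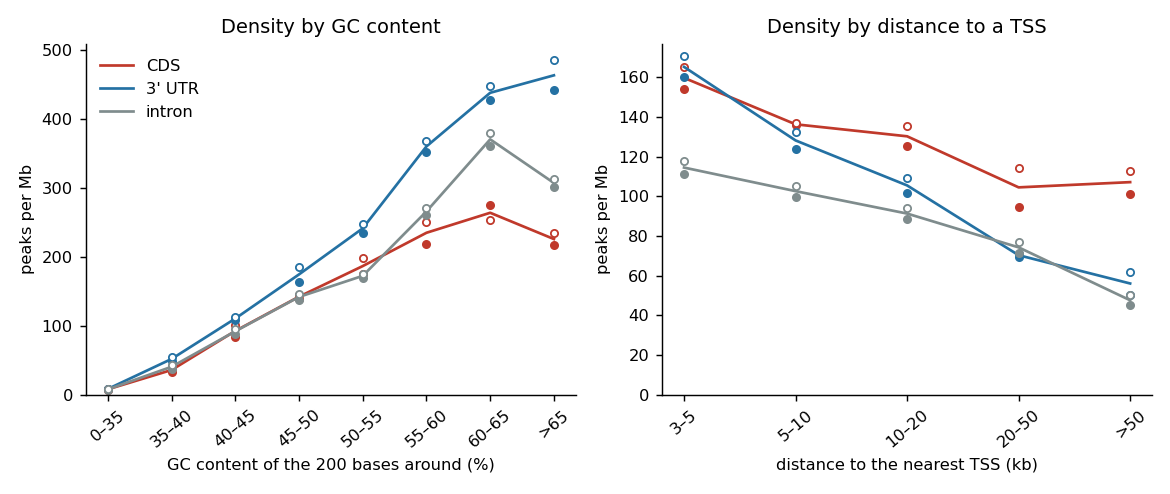
Peaks per Mb of CDS, 3′ UTR and intron bases over 3 kb from a TSS, by the GC content of the surrounding 200 bases (left) and by distance to the nearest TSS (right). Filled points are replicate 1, open points replicate 2, lines their mean. CDS lies above introns at every distance but at or below them at GC contents over 55%, whereas 3′ UTRs lie above introns at GC contents from 35% upwards.

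With distance from promoters, 3′ UTRs lost open regions faster than CDS. CDS had 134 shared regions per Mb at 3 to 5 kb from a TSS and 99.8 per Mb beyond 50 kb, where 61 regions remained. In 3′ UTRs the density fell from 135 to 49.1 per Mb and in introns from 96.2 to 40.4 per Mb. Not weighted for GC, the ratio of CDS to introns was between 1.31 and 1.40 in the distance classes up to 50 kb. Beyond 50 kb, where it rests on those 61 CDS regions, the ratio was 2.47, with 2.25 in both replicates. For 3′ UTRs it went from 1.40 at 3 to 5 kb to 0.916 at 20 to 50 kb (0.972 and 0.924 in the replicates) and was 1.22 beyond 50 kb (1.11 and 1.24). Genes with an open promoter, 78.6% of 18773 protein-coding genes, had more open 3′ UTRs (106 against 58.3 regions per Mb, a ratio of 1.82) and introns (79.7 against 42.0, a ratio of 1.90) than genes without. In CDS the same ratio was 1.27 (117 per Mb, interval 111 to 124, against 92.5 per Mb, interval 81.4 to 104.7).

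Seen from fixed points in genes, the profile showed a small rise at coding exons and a sharp dip at transcript ends. Around the centres of 53204 internal coding exons more than 5 kb from a TSS, 4.05% of the positions within 60 bp were under a shared region, against 3.55% at 1 to 2 kb upstream and 3.63% downstream. Both replicates showed this, with 3.88% against 3.39% and 3.46% in replicate 1, and 4.18% against 3.598% and 3.68% in replicate 2. The GC content was 46.1% at the exon centres and 42.2% at 1 to 2 kb on either side. At 7611 transcript 3′ ends the covered share dropped to 3.39% at 60 bp before the end, between 5.05% at 1 to 2 kb upstream and 6.69% at 1 to 2 kb downstream. In replicate 1 the lowest value was 2.97% and in replicate 2 3.31%, at the same position. The bases around the 3′ ends were 30.01% GC, against 43.3% upstream and 43.9% downstream, and the part of base composition in the dip was not tested. Within 60 bp of 6902 stop codons the covered share was 5.40%, between 4.53% at 1 to 2 kb upstream and 5.54% at 1 to 2 kb downstream.

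**Figure D4:**
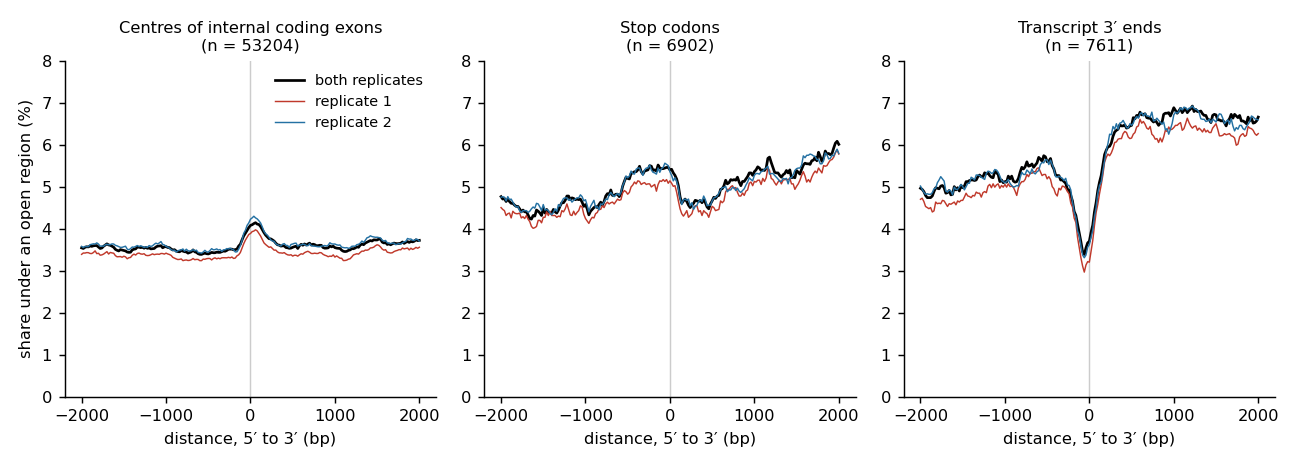
Share of positions under an open region (%) by distance from the centres of internal coding exons, from stop codons and from transcript 3′ ends, in the direction of transcription, for canonical transcripts with the point more than 5 kb from a TSS. The black line is the shared regions and the coloured lines are the peak lists of the replicates. The share rises to 4.15% just behind exon centres and dips to 3.39% just before transcript 3′ ends.

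The sequence content of the exonic regions differed from that of intronic ones. The median GC content of the central 200 bases was 55% in CDS, 51.5% in 3′ UTR, 48.5% in intron and 48.5% in intergenic regions. CpG-rich centres (over 50% GC and a CpG ratio over 0.6) made up 8.49% (7.25 to 9.93%) of the CDS regions, 2.02% (1.54 to 2.64%) of the 3′ UTR regions and 0.903% of the intron regions. These were the stronger regions in each class: the 142 CpG-rich CDS regions had medians of 20.7-fold and 21.3-fold and the 1530 others 8.74-fold and 8.85-fold, the 52 CpG-rich 3′ UTR regions had 22.5-fold and 22.6-fold, and the 586 in introns 20.6-fold and 20.5-fold.

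Forkhead, GATA and AP-1 motifs, of factor families that are active in luminal breast cells, were rarer at exonic centres. All motifs were searched on both strands within 50 bp of the midpoint. The forkhead motif TGTTTAC, bound by FOXA1, was found in 1.14% of CDS (0.729 to 1.77%), 2.25% of 3′ UTR (1.75 to 2.90%) and 3.71% of intron and of intergenic regions. In CDS regions it was as dense at the centre as at 200 to 300 bp away (1.03 times), in 3′ UTR regions 1.55 times and in introns 2.48 times as dense. The GATA motif AGATAA occurred in 2.27% of CDS, 3.11% of 3′ UTR and 5.35% of intron regions, and was less dense at the centre than in the flanks in every class. The AP-1 motif TGANTCA occurred in 3.65%, 4.94% and 6.31%. The grainyhead motif AACCNGTT occurred in 1.14%, 1.55% and 1.74%, and the upper bounds of 1.77% for CDS and 2.11% for 3′ UTRs lie above the value of introns.

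The GC-rich SP/KLF and ETS motifs showed the opposite order. The SP/KLF motif GGGCGG was found in 5.56% of CDS (4.56 to 6.77%), 4.003% of 3′ UTR (3.31 to 4.83%) and 2.53% of intron regions, and the ETS motif CCGGAA in 2.21% (1.61 to 3.04%), 1.55% (1.14 to 2.11%) and 0.982%. The AP-2 motif GCCNNNGGC occurred in 6.76%, 6.88% and 5.67%, and its centre-to-flank ratio was 1.58, 1.90 and 2.29. CTCF matches were found in 1.79% of CDS (1.26 to 2.55%), 2.10% of 3′ UTR (1.61 to 2.73%), 1.67% of intron and 2.01% of intergenic regions, and the exonic intervals include both other values. They were concentrated at the centre, where 30 matches in CDS compare with 3 in the 2 flanks of 100 bp. An estrogen response element, GGTCA and TGACC with 3 bases between, was present in 2 regions of either exonic class, too few to compare. Coding sequence is constrained in its letters and GC differs between the classes, so these shares describe the sequence and not the binding of a factor.

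**Figure D5:**
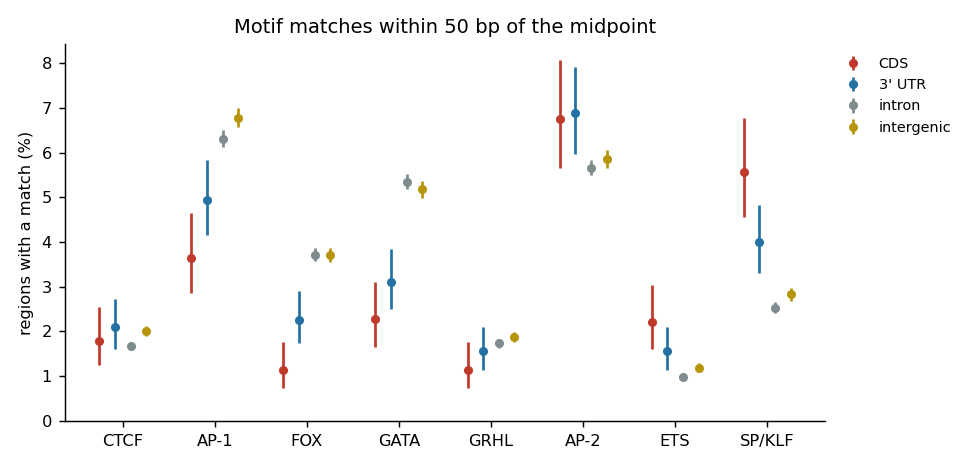
Share of regions (%) with at least 1 match to a motif within 50 bp of the midpoint, by class. Bars are 95% Wilson intervals. FOX, GATA and AP-1 matches are less frequent in CDS than in intron regions, SP/KLF and ETS matches more frequent, and CTCF matches are near 2% in every class.

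At the level of genes, 1448 genes had a CDS region and 1993 a 3′ UTR region, and 279 had both, which is 19.3% of the first and 14.0% of the second. One region per gene was the rule, with 1276 and 1581 genes, and 3 or more were present in 31 and 113 genes. Of the genes with any such bases over 3 kb from a TSS, 10.9% (1448 of 13323) had a CDS region and 16.1% (1993 of 12417) a 3′ UTR region, which is the background for the groups that follow.

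PLEC, the cytolinker plectin, had the most CDS regions, 7 over 4 exons, all weak (3.68-fold to 6.67-fold in replicate 1, 3.32-fold to 5.97-fold in replicate 2), 4 of them inside its last coding exon of 7243 bp. MAP1A, a microtubule-associated protein with an exon of 8185 bp, had 5, also weak (4.14-fold to 8.97-fold in replicate 1). ABCA4, a lipid transporter of photoreceptors, had 5 over 5 exons. The strongest of them, at 112-fold and 99.3-fold, lay in the last exon of a shorter transcript, and the others in exons 20, 25, 48 and 49 of 50 had between 10.6-fold and 25.1-fold in replicate 1. KCP, a BMP modulator, had 5 (3.22-fold to 56.4-fold), MACF1, a spectraplakin, 5 (5.06-fold to 21.6-fold), and SRCAP, a chromatin remodeller, shared the same number with 3.45-fold to 14.7-fold in replicate 1.

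Among 3′ UTRs, KCNC4, a voltage-gated potassium channel gene, had 10 regions, of which only 1 lay in the UTR of its canonical transcript and most in an alternative last exon of 16904 bp. Its strongest, 1984 bp wide, had 78.7-fold and 80.0-fold, and 3 of the 10 exceeded 30-fold in both replicates. RPL14, a ribosomal protein gene whose canonical last exon is annotated with 6649 bp, had 7, of which 1 reached 89.0-fold and 90.2-fold and the other 6 stayed between 3.91-fold and 11.5-fold in replicate 1. Copied words made up 17.6% of that strongest region, and 25.1% and 33.6% of 2 of the weak ones. AMZ1, a metallopeptidase gene, had 6, with 46.5-fold and 44.9-fold in its 2 strongest in replicate 1 and 42.7-fold and 51.3-fold in replicate 2. HEMK1, a protein methyltransferase with a last exon of 15786 bp, had 6, up to 58.4-fold and 60.6-fold. Copied words made up 66.7% of its weakest region (4.37-fold and 5.97-fold) and at most 5.11% of its others. BORCS5 had 5, DUSP3 5 and TBC1D16 5.

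In a list of 30 luminal breast genes, 20 had coding bases and 20 had 3′ UTR bases at the required distance. A 3′ UTR region was present in 10 of 20 (50.0%, interval 29.9 to 70.1%, against 16.1% over all genes) and a CDS region in 4 of 20 (20%, interval 8.07 to 41.6%, against 10.9%). These shares are per gene and are not adjusted for exon length or promoter state, whose part was not tested. Every gene of the list with a region had an open promoter, which over all members held for 90.9% of 3′ UTR and 84.4% of CDS regions. Over all genes, 3′ UTRs had 106 regions per Mb with an open promoter and 58.3 without. After SPDEF the strongest was PGR, the progesterone receptor, with 27.6-fold and 33.8-fold in the middle of its last exon of 9648 bp. AGR2, a protein disulfide isomerase of secretory epithelium, had 20.02-fold and 25.7-fold, and TFAP2B 20.5-fold and 21.7-fold. The other 3′ UTR regions were near or below the median of the class: GATA3 had 9.43-fold and 10.4-fold, the estrogen receptor gene ESR1 7.59-fold and 6.19-fold in the last exon of an alternative transcript, and CDH1, E-cadherin, 7.13-fold and 7.08-fold. ELF5 had 10.1-fold and 5.31-fold, GRHL2 8.05-fold and 6.63-fold, and TRPS1 5.29-fold and 3.76-fold. In coding exons TRPS1, a GATA-type repressor of luminal cells, had 33.4-fold and 38.5-fold in exon 5 of 7, TFAP2A 15.2-fold and 13.05-fold in its last exon, and the estrogen-induced gene GREB1 6.21-fold and 5.31-fold in exon 22 of 33.

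Among the families defined by symbol, the intervals for CDS regions lay above the 10.9% of all genes in keratin, mucin and ABC transporter genes. Keratin genes had a CDS region in 12 of 34 (35.3%, interval 21.5 to 52.1%) and a 3′ UTR region in 0 of 32, which allows a share of up to 9.38%. Of their 14 regions, 12 lay in the type II cluster on chromosome 12, and the position in the gene, looked at after these values were known, was not even. Exon 7, 221 bp long in each of 12 genes of 9 exons with this exon over 3 kb from a TSS, was open in 9 of the 12. Exon 5 had a region in 0 of 10 genes in which it was at that distance, exon 6 in 0 of 11 and exon 9 in 2 of 13. The zeros of exons 2 (1 gene), 3 (6 genes, median 61 bp), 4 (8 genes, 96 bp) and 8 (13 genes, 35 bp) rest on few or short exons. KRT82, a hair keratin, had 107-fold and 112-fold over exon 7, KRT80 76.4-fold and 70.3-fold, and KRT75 33.6-fold and 39.1-fold. KRT2 had 16.1-fold and 11.9-fold, KRT4 8.05-fold and 7.08-fold, KRT3 6.67-fold and 3.98-fold, KRT71 6.67-fold and 5.97-fold, KRT6B 5.29-fold and 5.31-fold, and KRT72 5.06-fold and 5.75-fold. KRT76, KRT81 and KRT83 had none. The median GC content of exon 7 was 61.3%, the highest of the exons compared. In 4 of the 9 (KRT3, KRT6B, KRT71 and KRT72) at least 10% of the 32-base words also occurred elsewhere, up to 65.3% in KRT6B, so reads could be shared with paralogs there, and 5 of the 9 were below that.

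The other families lay on both sides of the background. C2H2 zinc finger genes had a CDS region in 6.28% (29 of 462) and a 3′ UTR region in 7.24% (33 of 456), both with intervals (4.41 to 8.87% and 5.20 to 9.99%) under the values of all genes. Olfactory receptor genes had a CDS region in 1 of 90 and a 3′ UTR region in 7 of 138, and protocadherin genes in 3 of 46 and 4 of 52. Collagen genes had 4 of 40 and 4 of 37, and solute carrier genes 34 of 287 and 52 of 266. ABC transporter genes had a CDS region in 8 of 38 (21.1%, interval 11.1 to 36.3%) and a 3′ UTR region in 2 of 29. Mucin genes had a CDS region in 5 of 15 (33.3%, interval 15.2 to 58.3%), namely MUC2, MUC4, MUC5AC, MUC16 and MUC17, and a 3′ UTR region in 1 of 11. HOX genes had a CDS region in 0 of 3, too few to bound a share, and a 3′ UTR region in 2 of 8, HOXC12 and HOXC13. No family was tested, as genes of a family are neighbours and of unequal length.

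Across chromosomes the density of CDS regions ranged from 77.0 per Mb on chromosome 11 to 190 per Mb on chromosome 16, and that of 3′ UTR regions from 42.4 per Mb on chromosome 21, with 13 regions, to 226 per Mb on chromosome 22, with 112. Introns ranged from 54.8 per Mb on chromosome 18 to 131 per Mb on chromosome 22. CDS was less dense than introns on chromosomes 19 (100.9 against 112 per Mb) and 22 (113 against 131), and 3′ UTRs were less dense than introns on chromosomes 18 (47.3 against 54.8) and 21 (42.4 against 77.4), with 112 per Mb for both on chromosome 19. The number of DNA copies of each chromosome in this line was not analysed here and enters the height of every peak. Copied sequence was less frequent in the exonic classes than in introns: at least 10% of the 32-base words occurred elsewhere in 6.46% of CDS, 9.56% of 3′ UTR and 13.9% of intron regions. The 108 CDS regions of this kind had medians of 11.0-fold and 11.5-fold, and the other 1564 had 8.97-fold and 9.07-fold.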

How the data were processed

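The 2 ATAC-seq libraries of CAMA-1 cells, biological replicates of 50000 cells, were used. Per the submitters' processing notes, the authors trimmed reads with Trim Galore 0.6.5, aligned them with Bowtie2 2.3.5.1 to hg38 and called peaks with MACS2 2.2.6, in each replicate separately. Settings of the peak caller and the treatment of duplicates are not given in the sources used here. The peak lists hold no read totals, and the sequencing totals that the study gives were not used here. The authors deposited, for every peak, a score equal to 10 times the −log10 q cut to a whole number, the fold enrichment as a ratio over background, and both −log10 p and −log10 q. All fold enrichments of a list were multiples of 1 step (0.230 in replicate 1, 0.221 in replicate 2). The background was therefore the same for all peaks of a list and not local.

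Peaks of both lists that overlapped by at least 1 bp were merged, and regions with both lists took the highest fold enrichment of each. The midpoint stood for the summit. Exons came from GENCODE release 44, with the stop codon counted as coding. The strongest named members have the 12 best mean ranks per class (1 of them is not reported here), further named genes have the most regions (the first 5, with ties), belong to the luminal list or carry the printed CTCF sites. The members, lists, motifs and alternatives were chosen with earlier results of these data known. Merging, classes and weighted ratios were checked on simulated data. With 1 condition, no test was run. Python 3.11.15, numpy 2.4.6, pandas 2.3.3, scipy 1.17.1 and matplotlib 3.10.9 were used.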

Additional observations from a re-analysis of the deposited data

How the results depend on the processing

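Values of 1 condition could not be tested, so a value counts as moved when it changed by more than the SD between the replicates, which was under 0.001 for the density ratios, and a count when it changed by more than 1.5 times. The numbers of members stayed within that factor except over 10 kb from a TSS (646 CDS, 834 3′ UTR regions) and, for CDS, with at least 50% of the region in the feature wherever the midpoint lay (978). The density ratio of CDS to introns was 1.54 as reported. It was 1.54 for peaks with −log10 q from 10 upwards, 1.52 when peaks had to share 50% of each other, 1.57 over 10 kb from a TSS, 1.51 on canonical transcripts, 1.68 without regions of copied words, and 1.56 with either replicate left out (1.56 to 1.56). It turned to 0.894 with at least 50% of the region in the feature, an alternative that by construction removes regions over short exons. With introns weighted after the data had been seen it was 1.38 for TSS distance and turned to 0.873 for GC over 200 bases, 0.940 over 500 bases and 0.834 for GC and distance. For 3′ UTRs (1.36) the same settings gave 1.33, 1.33, 1.17, 1.36, 1.43, 1.39 to 1.39 and 1.33, then 1.22, 1.26, 1.22 and 1.19, all above 1. The median fold enrichment relative to introns, 0.988 for CDS and 1.01 for 3′ UTRs, was 1.02 and 1.07 for peaks with −log10 q from 10 upwards, 1.01 and 1.05 with the stricter overlap, and 1.02 and 1.07 over 10 kb from a TSS. With at least 50% of the region in the feature it was 0.790 for CDS. With a replicate left out it was 0.971 to 0.971 for CDS and 0.971 to 1.00 for 3′ UTRs. Other causes of these moves were not tested. The share with a CTCF match was 2.81% (CDS) and 3.11% (3′ UTR) in the wider window of 100 bp on each side. No paired analysis was possible because all samples form 1 group. The peak lists hold no reads below the threshold of the caller, so a weak open exon cannot be told from a closed one at this depth.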
